A study of Rattus norvegicus with 6 samples.

Results

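Slit ligands, their Robo receptors and the srGAPs, cytoplasmic proteins that bind Robo, were followed in rat motor neuron cultures exposed to camptothecin. The 9 genes were Slit1, Slit2, Slit3, Robo1, Robo2, Robo3, Srgap1, Srgap2 and Srgap3. A gene was taken from the array row whose only annotated symbol was its own, and 6 of the 9 had such a row, 1 each. Slit2, Srgap1 and Srgap3 were not matched to a row with a single symbol and were not analysed here. The 6 measured genes belong to 14506 genes with 1 symbol and to 29214 array rows in all.

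Primary motor neurons from rat embryos of embryonic day 13.5 were grown for 2 days and then received 1 microM camptothecin, an alkaloid that traps topoisomerase 1 on DNA, or an equal volume of DMSO, the solvent, for 2 h. Each treatment had 3 arrays (Affymetrix Rat Gene 1.0 ST, with probes along the whole transcript). No strain or genetic alteration is stated in the labels, which call the samples biological replicates without describing what sets them apart; p-values here reflect only the spread among those samples, which may be technical. Values are log2 expression values. Changes are log2 differences, camptothecin minus DMSO, with the standard error (SE) of limma's moderated fit, and a change was called when its p, adjusted by Benjamini-Hochberg over all rows, was under 0.05.

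Slits are secreted proteins that bind heparan sulfate and Robo receptors on growth cones. In the spinal cord, Slits made by the floor plate and by motor neurons themselves repel axons that carry Robo1 and Robo2, keep motor axons out of the midline and help set where motor nerves leave the cord. Robo3 is a divergent receptor of commissural axons that are crossing the midline. The srGAPs bend membranes through their F-BAR domain, bind the cytoplasmic part of Robo through an SH3 domain and act on small GTPases that shape the cytoskeleton.

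The labels call the samples motor neurons, and how pure the cultures were was not measured here. Array medians were 6.31 to 6.33 with camptothecin and 6.22 to 6.28 with DMSO, and arrays of a treatment correlated at 0.992 or more over all rows. Of 10 motor neuron markers 8 were measured and 5 of those lay below the median row. The transcription factors Isl1 and Isl2 averaged 5.63 and 5.19 over the 6 arrays, and the vesicular acetylcholine transporter Slc18a3 averaged 6.10. Above the median row lay Lhx3 (6.44), Nefh (6.57) and the receptor Ret, the brightest of the list at 7.79. Mnx1 and Chat were not matched to a row with 1 symbol. Spinal interneuron markers were measured for 10 of 12 genes, with Gad2 the brightest at 10.15, and 2 of the 10 lay below the median row. Rows of different genes are read by different probes, so these values say which rows were bright, not which cells were more numerous.

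No Slit, Robo or srGAP gene passed the test in either direction 2 h after camptothecin. With limma 0 of 6 fell, where 7.91% of all rows did, and 0 of 6 rose, where 10.1% of all rows did. At an unadjusted p under 0.05 the count was also 0 of 6, against 31.8% of all rows. Changes ran from -0.13 for Srgap2 to 0.15 for Slit1, with a median of 0.07, beside a median of 0.07 over all rows. The 95% intervals of the 6 genes reached no lower than -0.28 and no higher than 0.32 on the log2 scale. With values as deposited, a level under 0.824 of DMSO or a rise above 1.25-fold lay outside the interval of every measured gene.

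**Figure D1:**
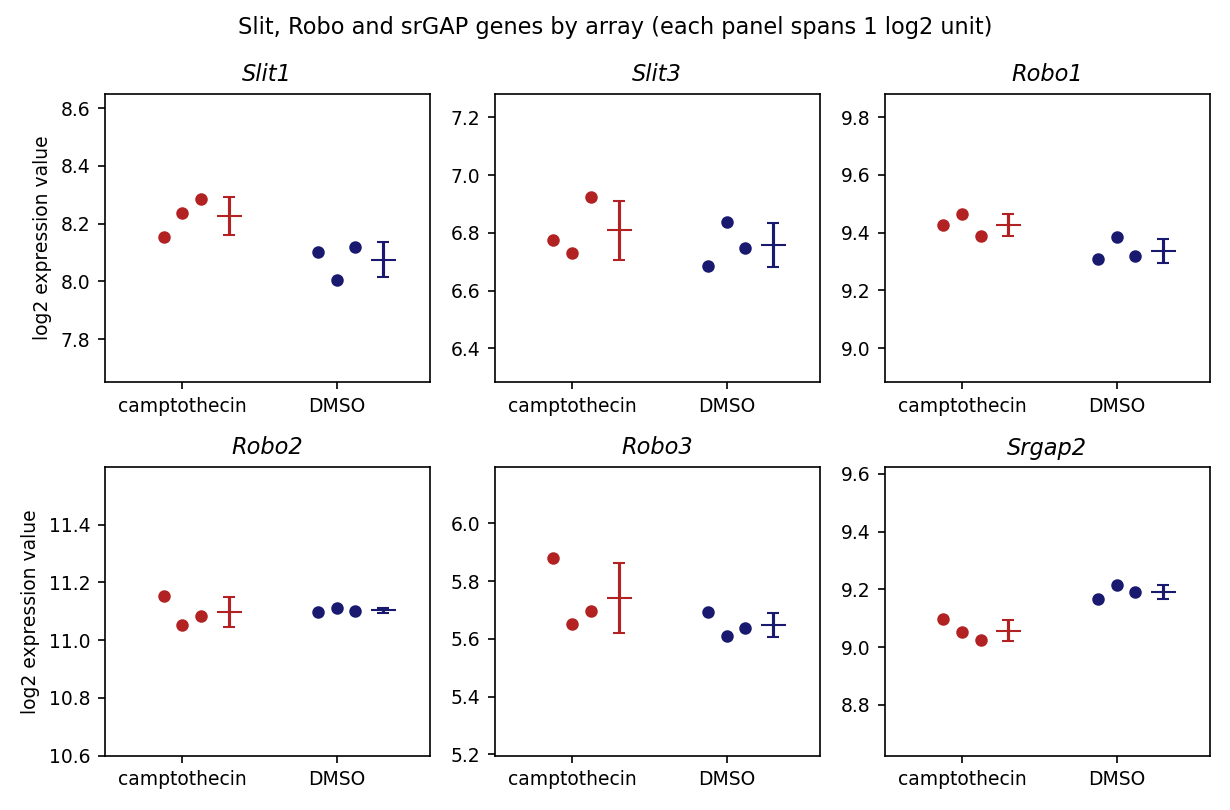
Log2 expression values (vertical axes, each spanning 1 log2 unit) of the 6 measured genes in the 3 camptothecin arrays (red, left) and the 3 DMSO arrays (dark blue, right); points are arrays, and the bar beside them is the mean with its SD. Slit1, Robo1 and Srgap2 show no overlap between treatments, yet the gaps are small on this scale.

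Among the ligands, Slit1, the Slit known chiefly from the nervous system, had 8.15, 8.24 and 8.29 in camptothecin arrays, against 8.10, 8.00 and 8.12 in DMSO arrays. The camptothecin values all lay above the DMSO values, by a narrow margin. The change was 0.15 (SE 0.07, n = 3 per treatment, adjusted p = 0.198). As a fold it was 1.11, with a 95% interval of 0.989 to 1.25. Slit3, a ligand also made by mesenchymal and endothelial cells, had 6.77, 6.73 and 6.92 in camptothecin arrays, against 6.69, 6.84 and 6.75 in DMSO arrays. The groups overlapped, and the change was 0.05 (SE 0.08, adjusted p = 0.71). Its highest value came from camptothecin replicate 3, and without that array the change was -0.0048.

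None of the 3 receptors passed the test. Robo1, the main Slit receptor of many axons, had 9.43, 9.47 and 9.39 in camptothecin arrays, against 9.31, 9.39 and 9.32 in DMSO arrays. The treatments did not overlap, but the lowest camptothecin and the highest DMSO value were equal to 2 decimals. The change was 0.09 (SE 0.06, adjusted p = 0.398), or 1.06-fold with an interval of 0.958 to 1.18. Robo2, which acts beside Robo1 in repulsion, had a bright row, with 97.2% of all row means at or below its own. It read 11.15, 11.05 and 11.09 in camptothecin arrays, against 11.10, 11.11 and 11.10 in DMSO arrays. The camptothecin arrays lay on both sides of the DMSO arrays, which differed by hardly more than the second decimal. Its change was -0.01 (SE 0.06, adjusted p = 0.955), and the fold of 0.995 had an interval of 0.897 to 1.10.

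Robo3, the receptor of crossing commissural axons, had 5.88, 5.65 and 5.70 in camptothecin arrays, against 5.69, 5.61 and 5.64 in DMSO arrays. The groups overlapped, and only camptothecin replicate 1 lay clearly apart. The change was 0.09 (SE 0.08, adjusted p = 0.483). Robo3 was the 1 dim row of the set: its mean of 5.70 lay below the median of all row means, 6.28, and its SE was the largest of the set. In the RefSeq table of the rat assembly GRCr8 the gene overlaps by 200 bases with its neighbour Robo4, an endothelial receptor of the same family. Robo4 did not pass the test either (0.11, SE 0.13, adjusted p = 0.633).

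Srgap2, which in mouse limits neuronal migration and promotes the maturation of dendritic spines, was the only srGAP measured and the only gene of the set, other than Robo2, with a change below 0. It had 9.10, 9.05 and 9.02 in camptothecin arrays, against 9.17, 9.21 and 9.19 in DMSO arrays. All camptothecin values lay under all DMSO values. The change was -0.13 (SE 0.06, adjusted p = 0.193), and the fold of 0.912 had an interval of 0.824 to 1.01. Groups did not overlap for 3 of the 6 genes (Slit1, Robo1 and Srgap2), where the share was 37.5% of all rows.

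Within a family, the changes of the measured genes could be set against each other in 4 pairs of the 9 that the full families would give. The SE of a pair comes from the spread of its 3 per-array differences in each treatment, without limma's moderation. It is therefore not comparable to the SE of a single gene. The difference between the Robo1 and Robo2 changes was 0.10 (SE 0.05, n = 3 per treatment), and the treatments did not overlap in the per-array difference (exact permutation test, two-sided, p = 0.1, adjusted over the 4 pairs p = 0.2). The difference of Robo2 minus Robo3 was -0.10 (SE 0.05, same exact p). That p is the smallest that 3 arrays against 3 allow, so the design cannot place a pair under 0.05. Slit1 minus Slit3 (0.10, SE 0.09, exact p = 0.5) and Robo1 minus Robo3 (-0.01, SE 0.09, exact p = 1) overlapped.

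The set holds some of the longest genes measured. By their annotated spans in GRCr8, used for length only since the array's build is not known here, Robo2 covers 1568 kb, Robo1 1041 kb, Slit3 585 kb, Srgap2 221 kb, Slit1 149 kb and Robo3 18.1 kb. Of the 5 that span 100 kb or more, 0 fell, where 34.8% of all such genes fell and 1.84% rose. That 0 depends on the scale: with arrays set to the ribosomal protein genes 2 of the 5 were called lower (Robo2 and Srgap2), where 66.6% of all genes of that length were. It was 0 of 5 with quantile normalization repeated (38.1% of all such genes) and with median centring (39.2%). In the group of 300 kb or more 40.1% fell, and 41.3% did so at 500 kb or more, the class of Robo1, Robo2 and Slit3. The median change of the 143 genes in that last class was -0.20, against 0.09 for Robo1, -0.01 for Robo2 and 0.05 for Slit3. In the class, 90.9% of genes had a lower change than Robo1, 83.9% a lower one than Slit3 and 73.4% a lower one than Robo2. Of the 1257 genes of 100 to 300 kb 33.3% fell, and there Srgap2 sat at the middle, with 48.7% below it, and Slit1 near the upper end, with 90.2% below it. Robo3 belongs to the genes under 30 kb, of which 2.34% fell and 15.2% rose. The difference between these 5 genes and other long genes was not tested.

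**Figure D2:**
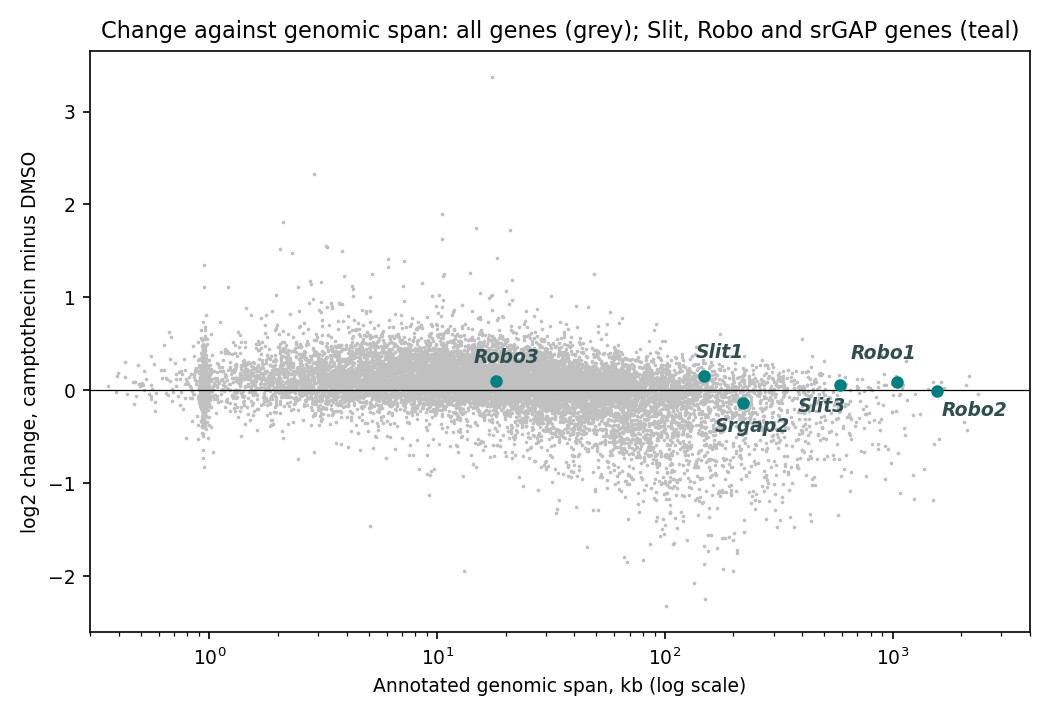
Log2 change, camptothecin minus DMSO (vertical axis), against annotated genomic span in kb (horizontal axis, log scale) for all genes with a span (grey) and the 6 Slit, Robo and srGAP genes (teal). Robo1, Robo2 and Slit3 lie near 0 at the right, where many grey points lie below 0.

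Span depends on where transcription starts, and the array row does not tell starts apart. The RefSeq promoter table (GRCr8, 250 bases before to 50 after a start) held 7 windows for 5 of the 6 measured genes, all but Slit1. The windows of the 3 longest genes are shown, 5′ to 3′ on the coding strand with CG dinucleotides in capitals, because the 2 Robo1 starts give that gene 2 lengths.
Robo1, upstream start (chr11:24067706-24068005, plus strand): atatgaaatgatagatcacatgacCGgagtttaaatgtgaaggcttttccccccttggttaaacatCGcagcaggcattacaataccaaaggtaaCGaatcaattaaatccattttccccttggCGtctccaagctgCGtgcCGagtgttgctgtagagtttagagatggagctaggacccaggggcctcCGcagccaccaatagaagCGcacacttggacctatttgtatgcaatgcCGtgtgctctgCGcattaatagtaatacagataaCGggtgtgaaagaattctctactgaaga
Robo1, downstream start (chr11:24714445-24714744, plus strand): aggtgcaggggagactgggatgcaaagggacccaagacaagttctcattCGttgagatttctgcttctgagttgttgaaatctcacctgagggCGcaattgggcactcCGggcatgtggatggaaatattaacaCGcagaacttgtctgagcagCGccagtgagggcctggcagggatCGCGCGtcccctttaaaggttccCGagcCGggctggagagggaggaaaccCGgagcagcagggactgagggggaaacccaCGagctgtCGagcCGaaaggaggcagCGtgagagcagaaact
Robo2 (chr11:26526363-26526662, minus strand): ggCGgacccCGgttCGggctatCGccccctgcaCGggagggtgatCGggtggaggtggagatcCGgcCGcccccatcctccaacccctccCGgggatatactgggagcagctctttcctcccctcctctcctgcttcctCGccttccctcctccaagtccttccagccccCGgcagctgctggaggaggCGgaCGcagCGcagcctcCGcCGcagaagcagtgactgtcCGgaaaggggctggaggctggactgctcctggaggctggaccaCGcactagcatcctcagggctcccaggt
Slit3 (chr10:20075679-20075978, plus strand): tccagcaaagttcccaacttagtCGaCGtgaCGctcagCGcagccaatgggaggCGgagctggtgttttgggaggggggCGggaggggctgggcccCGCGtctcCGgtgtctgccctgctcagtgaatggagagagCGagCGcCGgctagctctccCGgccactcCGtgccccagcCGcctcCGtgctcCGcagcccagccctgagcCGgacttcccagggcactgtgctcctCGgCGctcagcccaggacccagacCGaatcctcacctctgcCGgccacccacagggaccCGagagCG
From the upstream start Robo1 runs 1041 kb to its end, and from the downstream start 394 kb. Robo2 runs 510 kb from the start in the table, shorter than its full annotated span. Each of these lengths leaves the genes in the class of 300 kb or more, but from the downstream start Robo1 is not in that of 500 kb or more. In the class of 300 kb or more 86.4% of genes had a lower change than Robo1. The windows hold 11 CG dinucleotides at the upstream and 15 at the downstream Robo1 start, 18 for Robo2 and 24 for Slit3, against a median of 7 over 33469 windows. The binding motifs of AP-1 (TGACTCA), CRE (TGACGTCA) and EGR1 (GCGTGGGCG), searched on both strands, were found in 0 of the 7 windows, where 4.63%, 1.83% and 0.544% of all windows hold them. At shares so low, 0 of 7 says little about these genes, and the windows of Srgap2 overlap each other.

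Other genes of the pathway did change, and more often down than up. Of 66 listed genes 60 were measured: 11 fell and 4 rose, where 7.91% of all rows fell and 10.1% rose, and 45 did not pass the test. Only 2 of the 60 were dim, so all rows are a dimmer background than these genes. With dim rows left out of the fit, 16 of 58 pathway genes fell and 9 rose, where 17.6% of the rows fell and 26.8% rose. The median change of the 60 was 0.00. The 11 falls were also called under each of the 3 other scalings. Of the 4 rises only that of Prrg4 was, and with arrays set to the ribosomal protein genes Sdc1 turned to -0.0049. The 4 rises became 1 or 2 in each fit without camptothecin replicate 2, camptothecin replicate 3 or any 1 of the DMSO arrays. The 11 that fell had a median span of 95.1 kb, and the 60 a median of 84.7 kb. Falls were more frequent among long genes, with 2.34% of all genes under 30 kb and 34.8% of those spanning 100 kb or more. No share was taken for 30 to 100 kb, so the pathway falls were not set against genes of like length. Whether they exceed the falls of such genes was not tested. Since cultures were profiled as a whole, fewer cells of a type and less RNA per cell cannot be told apart in these values.

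Among other receptors and ligands 3 of 10 fell and 0 rose, where 7.91% of all rows fell and 10.1% rose. The median span of this list was 95.1 kb, and it was not set against a background of like length. Flrt2, a membrane protein of the family whose member Flrt3 can bind Robo1, had 6.83, 6.63 and 6.75 in camptothecin arrays, against 8.31, 8.29 and 8.32 in DMSO arrays. It fell to 0.336 of its DMSO level (-1.57, SE 0.07, adjusted p = 3.8e-05). Plxna2, a semaphorin receptor subunit related to the Slit fragment receptor Plxna1, had 9.57, 9.38 and 9.44 in camptothecin arrays, against 10.59, 10.54 and 10.52 in DMSO arrays (-1.09, SE 0.07, adjusted p = 0.0002). In both genes the treatments lay far apart. The third, named after its value was seen, was the chemokine Cxcl12 (-0.26, adjusted p = 0.0483). Flrt3 itself (0.16, adjusted p = 0.171), the netrin receptor Dcc, which Robo1 can bind (0.06, adjusted p = 0.616), and the Robo3 ligand Nell2 (0.11, adjusted p = 0.382) did not pass. Those 3 were chosen for their known link to Robo, and Dcc, with a span of 1104 kb, is another very long gene.

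Heparan sulfate, a sugar chain that Slits bind, was covered by 12 genes. Of these 1 fell and 2 rose, where 7.91% of all rows fell and 10.1% rose. Ext1, a subunit of the polymerase that builds the chain, had 8.45, 8.26 and 8.32 in camptothecin arrays, against 9.77, 9.75 and 9.65 in DMSO arrays. It fell to 0.384 of its DMSO level (-1.38, SE 0.08, adjusted p = 9.2e-05). The other subunit, Ext2, changed by -0.32 and did not pass (adjusted p = 0.0598). Ext2, like Usp33, Abl1 and Enah among the genes described next, was picked with its value known, for its known role. Sdc3, a neuronal carrier of the chains, had 9.69, 9.83 and 9.71 in camptothecin arrays, against 9.48, 9.47 and 9.41 in DMSO arrays (0.29, SE 0.07, adjusted p = 0.0295). The second rise, named after its value was seen, was the related carrier Sdc1 (0.24, adjusted p = 0.0368).

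The list of receptor processing genes had 6 measured members, of which 1 rose and 0 fell, where 10.1% of all rows rose and 7.91% fell. Prrg4, the mammalian relative of the fly protein Commissureless, which in flies keeps Robo off the growth cone surface, had 7.45, 7.51 and 7.52 in camptothecin arrays, against 7.03, 6.79 and 7.01 in DMSO arrays. It rose 1.46-fold (0.55, SE 0.08, adjusted p = 0.00627), with the treatments well apart. Usp33, a deubiquitinase that binds Robo1, had a change of 0.29 that did not pass (adjusted p = 0.0647).

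The cytoplasmic adaptors and enzymes that bind Robo or its partners had 5 falls and 0 rises in 16 measured genes. Their median change was -0.21, and of all rows 7.91% fell and 10.1% rose. All rows are not a background of like length, since the median span of these 16 genes was 99.6 kb. Long genes were often called lower: 34.8% of those with at least 100 kb, while 1.84% were called higher. Whether the adaptors differ from other genes as long was not tested. Sos2, an activator of Ras GTPases, had 7.69, 7.63 and 7.56 in camptothecin arrays, against 9.20, 9.08 and 9.05 in DMSO arrays (-1.48, SE 0.07, adjusted p = 5.6e-05). Its relative Sos1, whose fly counterpart joins the Robo complex and activates Rac, had 8.97, 9.05 and 8.99 in camptothecin arrays, against 10.29, 10.33 and 10.32 in DMSO arrays (-1.31, SE 0.06, adjusted p = 4.1e-05). Both fell by more than a log2 unit in a tight set of arrays. The other falls, named after their values were seen, were the kinase Abl2 (-0.71), the actin regulator Cap2 (-0.69) and the GTPase activating protein Arhgap39 (-0.54), whose fly relative binds Robo. Abl1, the second Abl kinase, did not pass (-0.04, adjusted p = 0.781), nor did Enah, a relative of the fly Robo partner Enabled (-0.18, adjusted p = 0.0872).

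Of 3 cadherin and catenin partners 1 rose, where 10.1% of all rows did. It was the neuronal catenin Ctnna2, with 9.90, 10.05 and 10.00 in camptothecin arrays, against 9.67, 9.68 and 9.65 in DMSO arrays (0.32, SE 0.07, adjusted p = 0.021). Ctnna2 is also a very long gene, with a span of 1149 kb, and 1.84% of all genes spanning 100 kb or more rose.

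**Figure D3:**
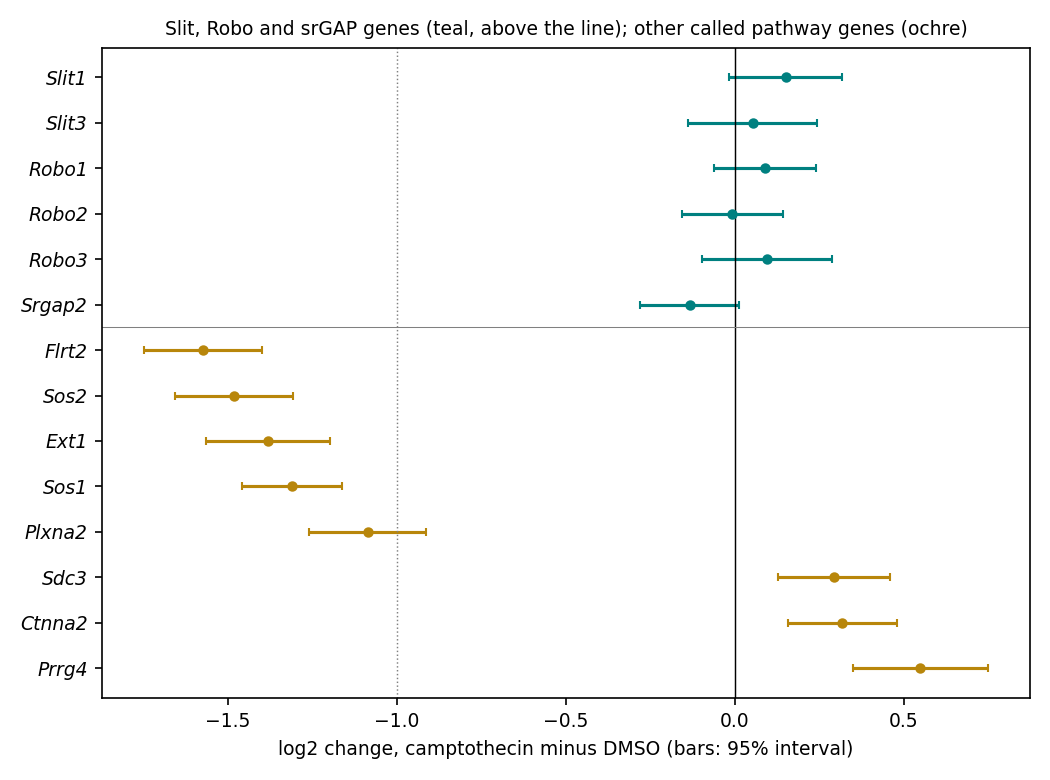
Log2 change, camptothecin minus DMSO (horizontal axis), with 95% intervals for the 6 Slit, Robo and srGAP genes (teal, above the grey line) and for up to 2 called genes of each role described above (ochre); the solid vertical line marks 0 and the dotted one a change of -1. All teal intervals include 0, and 5 of the ochre points lie left of the dotted line.

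Markers of cells that make or read Slits were set beside these values. Floor plate markers had 0 calls in 4 measured genes with limma (1 at an unadjusted p under 0.05), and their mean level ran from 7.15 to 7.38 in camptothecin arrays and from 7.11 to 7.20 in DMSO arrays. Commissural neuron markers had 0 calls in 6 (0 at an unadjusted p under 0.05), with mean levels of 6.64 to 6.69 in camptothecin arrays and 6.57 to 6.59 in DMSO arrays. Over all rows 10.1% rose and 7.91% fell. Motor neuron markers rose in 2 of 8, Nefh (0.59) and Prph (0.31), and fell in 0. At an unadjusted p under 0.05 there were 4, the others being lower, Slc5a7 (-0.34) and Ret (-0.17). The median change of the motor neuron markers was -0.05. Their mean levels were 6.14 to 6.30 in camptothecin arrays and 6.19 to 6.20 in DMSO arrays. Spinal interneuron markers fell in 5 of 10 and rose in 0 (6 at an unadjusted p under 0.05, among them Slc32a1, higher by 0.23). Mean levels of the interneuron markers were 7.67 to 7.78 in camptothecin arrays and 8.03 to 8.14 in DMSO arrays. Their part in the pathway genes that fell was not tested.

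The direction of the small changes depended on how arrays were scaled. Setting every array to the same mean over ribosomal protein genes moves the median change of all rows to -0.18, against 0.07 as deposited. On that scale all 6 Slit, Robo and srGAP genes had changes below 0, and 2 of them were called lower, Srgap2 (-0.38, SE 0.07, adjusted p = 0.00703) and Robo2 (-0.26, SE 0.07, adjusted p = 0.0401), where 25.8% of all rows were called lower. This centring adds 1 constant to each array, so the order of the 6 changes was the same on both scales, with Srgap2 the lowest and Slit1 the highest. With quantile normalization repeated or with arrays centred on their medians, 0 of the 6 passed, and the change of Slit3 turned below 0.

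**Figure D4:**
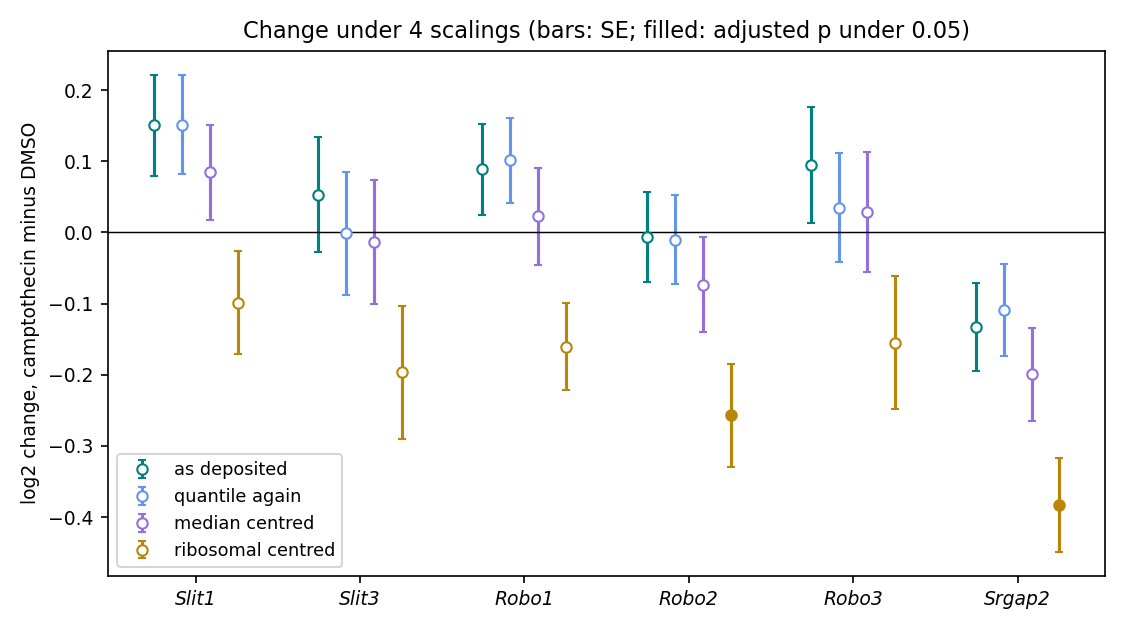
Log2 change, camptothecin minus DMSO (vertical axis, bars are SE), of the 6 genes with values as deposited and under 3 other scalings; filled points have an adjusted p under 0.05. The filled points are Robo2 and Srgap2 on the ribosomal scale, where all 6 points lie below 0.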

How the data were processed

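The log2 values were deposited by the authors, 1 for each of 29214 transcript clusters on 6 arrays, and RMA and oligo are the tools listed in the submitters' processing notes. Their versions and the array's genome build are not stated in those notes or labels. The platform annotation gave 1 symbol to 15310 rows, and a gene with several such rows was taken by the row with the highest mean. The values were fitted without further normalization or a filter, camptothecin against DMSO, by lmFit and eBayes of limma 3.58.1 (R 4.3.3), as a two-sided test whose p-values were adjusted by Benjamini-Hochberg across every row.

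Genes and lists were chosen with earlier results of these data known. Named pathway genes are up to 2 per role with the largest called change, and others, picked with values known, are marked in the text. The genes of 1 role count in the pathway totals but are not reported here. Genes whose pattern was most like a called gene of the set were to be named, but none was called. Alternatives were 3 other scalings, a filter on dim rows, rows with 1 symbol only, a replicate block, trend and robust eBayes, the mean over a gene's rows, and leaving out each array. On simulated data with 200 of 29214 rows changed for camptothecin against DMSO, the fit found 16.5% of those moved by 0.5 log2 units, 82% of those moved by 1 and 97.5% of those moved by 2. So few changed rows make the adjusted threshold stricter than in the data, where 18.0% of rows were called. The smallest called change there was 0.216 in size, so the simulated shares do not carry over to the real fit. The number of arrays limits the precision.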

Additional observations from a re-analysis of the deposited data

How the results depend on the processing

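With limma, 0 of the 6 Slit, Robo and srGAP genes passed in 13 of the 14 alternatives, Robo3 being left out where dim rows were removed. The exception was centring on the ribosomal protein genes, where 2 were called lower, Robo2 (-0.26) and Srgap2 (-0.38). That scale turned Slit1 to -0.10, Slit3 to -0.20, Robo1 to -0.16 and Robo3 to -0.16. Slit3 was also below 0 with quantile normalization repeated (-0.0015) and with median centring (-0.014). The row filters, the replicate block and trend and robust eBayes kept each fitted change and altered only its SE and p. The mean over a gene's rows did likewise, since each of the 6 genes has 1 row. With 1 array left out the changes were 0.12 to 0.19 for Slit1, -0.0048 to 0.093 for Slit3, 0.07 to 0.11 for Robo1, -0.035 to 0.015 for Robo2, 0.03 to 0.14 for Robo3 and -0.15 to -0.12 for Srgap2. Slit3 was below 0 there without camptothecin replicate 3, and Robo2 was above 0 without camptothecin replicate 2 (0.015).

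Of the other pathway genes 11 were lower, and 32 of 60 were on the ribosomal scale, where the share of all rows called lower was 25.8% in place of 7.91%; the fits that each left out an array gave 10 to 12. The 4 higher became 1 with either centring (5.57% of all rows on medians, 2.24% on the ribosomal scale). They were 9 of 58 without dim rows (26.8% of the rows tested), 7 with 1-symbol rows (16.3%) and 8 with trend and robust (13.9%). The lower genes were 15 with quantile normalization repeated (9.25% of rows) and with median centring (9.39%). There were 16 of 58 lower without dim rows (17.6%), 15 with 1-symbol rows (10.8%) and 16 with trend and robust (9.1%). With 1 array left out 1 to 4 were higher, 1 without DMSO replicate 3, DMSO replicate 2 or camptothecin replicate 3, and 2 without camptothecin replicate 2 or DMSO replicate 1. With the replicate block 1 was higher and 10 were lower, though deviations of arrays that share a number correlated at only -0.084, 0.022 and 0.085 and the labels give no pairing. The 2 settings that drop rows test fewer of them; for the remaining shifts the cause was not tested.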

Other observations

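Other families of axon guidance genes, chosen by symbol after values were known, were set beside the Slit and Robo genes. Over all rows 7.91% fell and 10.1% rose, and 34.8% of genes spanning 100 kb or more fell. Of 23 semaphorins, plexins and neuropilins 5 fell and 5 rose, and of their 10 genes spanning 100 kb or more 5 fell, led by the semaphorin receptor Nrp1 (-1.73, SE 0.07). Of 10 netrins and netrin receptors 2 fell and 0 rose, both among the 5 of that length, a share near that of all genes so long, with Unc5c at -1.37 (SE 0.07) and the netrin G gene Ntng1 at -0.34 (SE 0.08). Of 18 ephrins and Eph receptors 5 fell and 4 rose, and 4 of their 6 long genes fell, among them Epha3 (-0.80, SE 0.07). The Slitrk genes, neuronal membrane proteins named for their likeness to Slit and Trk, have short spans with a median of 10.7 kb, and 3 of the 6 fell, Slitrk1 (-0.61, SE 0.10), Slitrk5 (-0.59, SE 0.07) and Slitrk3 (-0.42, SE 0.07). Among all genes spanning under 30 kb 2.34% fell. With arrays set to the ribosomal protein genes the falls and rises were 10 and 2 in the semaphorin group, 3 and 0 in the netrin group, 9 and 3 in the ephrin group and 6 and 0 among the Slitrk genes, where 25.8% of all rows fell and 2.24% rose. Differences between these families and the Slit and Robo genes were not tested.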
